A study of Mus musculus with 2 samples.

Results

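Primitive endoderm genes were examined in Dicer_KO mouse embryonic stem cells (mESCs), as a group of 10 genes picked by name among the 43629 genes counted. They comprise the transcription factors Gata4, Gata6, Sox7, Sox17 and Hnf4a, the receptor and uptake genes Pdgfra, Dab2, Cubn and Amn, and the matrix gene Sparc. All 10 symbols matched 1 Ensembl gene each. The genes were picked by name with earlier results of these libraries known. PolyA RNA was sequenced in 2 libraries of Dicer knockout mESCs, which came from E14TG2a, a mouse line of 129/Ola background. Replicate 1 was at passage 7 and replicate 2 at passage 4. The study made the knockout lines with paired CRISPR/Cas9 cuts in Dicer1 and isolated clones from single sorted cells. It describes a pair of different deletions, and the labels do not say which library carries which. Passage, deletion, clone and library therefore cannot be told apart. WT mESCs were not analysed here, so no value below says how a gene responds to the loss of Dicer.

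Primitive endoderm is the extraembryonic layer that segregates from the pluripotent epiblast in the inner cell mass of the blastocyst and later forms the visceral and parietal endoderm of the yolk sac. FGF4 from epiblast cells signals through FGF receptors to ERK and favours GATA6 over NANOG in the future endoderm. GATA6 then acts upstream of GATA4, SOX17 and SOX7. PDGFRA marks the emerging layer, DAB2 is needed to sort it to the surface, and cubilin and amnionless form the receptor by which visceral endoderm takes up nutrients.

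The libraries held 41.7 and 41.6 M counts on genes. At that depth 3 counts correspond to 0.0719 counts per M (CPM) in replicate 1 and 0.0722 CPM in replicate 2, and all 10 genes were above this limit in both. Levels of different genes were compared as RPKM, the counts per kb of annotated exon and per M counts on genes. Dicer1, the targeted gene, had 1343 counts in replicate 1 and 1510 in replicate 2, which without WT libraries does not check the labels. The embryonic stem cell identity was checked on 12 markers, all of which were above 20 RPKM. Their levels ranged from 23.5 RPKM for Tbx3 to 5519 for Dppa5a, with Pou5f1 at 439, Nanog at 395 and Sox2 at 279 (means of the 2 libraries). Zfp42 had the lowest log2 ratio of replicate 1 over replicate 2 among them (-0.32) and Dppa5a the highest (1.11).

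Apart from Sparc and Gata4, the primitive endoderm genes were below the median level of protein-coding genes. The median RPKM of 21551 protein-coding genes was 1.30, and 8 of the 10 genes lay below it, from 0.0387 RPKM for Gata6 to 0.836 for Hnf4a (means of the 2 libraries). All 8 were above the first quartile of 0.0209. At least 10 counts in both libraries were found for 8 of the 10, as for 38.3% of all genes and 65.1% of protein-coding genes. Sox7 and Gata6 did not reach 10 counts in both. The 10 genes summed to 113 RPKM in replicate 1 and 107 in replicate 2 (110 ± 4.63, SD, n = 2). Sparc alone made up 95.6% and 96.4% of these sums. Without it, the 9 other genes summed to 5.03 and 3.82 RPKM (4.42 ± 0.854, SD, n = 2). In bulk RNA, few cells at a high level and many cells at a low level cannot be told apart.

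**Figure D1:**
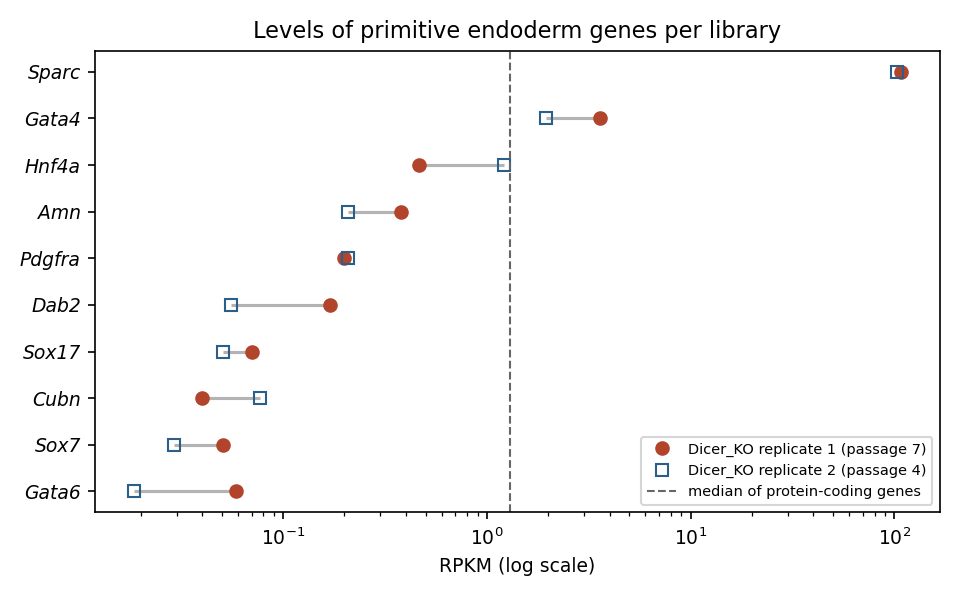
RPKM of each primitive endoderm gene in Dicer_KO replicate 1 (filled circles) and replicate 2 (open squares) on a log axis, with grey lines joining the libraries and a dashed line at the median of protein-coding genes (1.30 RPKM). Sparc stands above 100 RPKM in both libraries, Gata4 above the dashed line, and the other 8 genes below it.

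From the highest mean to the lowest, the order was Sparc, Gata4, Hnf4a, Amn, Pdgfra, Dab2, Sox17, Cubn, Sox7 and Gata6. The libraries of neighbouring genes did not overlap between Sparc, Gata4, Hnf4a and Amn, nor between Pdgfra and Dab2. Amn and Pdgfra met at 0.209 RPKM in replicate 2. From Dab2 downwards, each gene overlapped the next, so the order among Dab2, Sox17, Cubn, Sox7 and Gata6 is within the spread of the libraries.

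Among the transcription factors, Gata4 was the most abundant. Gata4 (ENSMUSG00000021944; GRCm38 chromosome 14, 63198922 to 63271692, minus strand) encodes a zinc finger activator of endoderm and heart genes. It had 586 counts, or 3.60 RPKM, in replicate 1 and 318 counts, or 1.96 RPKM, in replicate 2. Its mean of 2.78 ± 1.16 RPKM (SD, n = 2) was above that of 57.6% of protein-coding genes. Gata6 (ENSMUSG00000005836; chromosome 18, 11052064 to 11085635, plus strand), the related factor that initiates the primitive endoderm programme, had 16 counts in replicate 1 and 5 in replicate 2. This equals 0.0589 and 0.0185 RPKM (0.0387 ± 0.0286, SD, n = 2). Per length, Gata4 was 61.1 times as high as Gata6 in replicate 1 and 106 times in replicate 2. With so few counts of Gata6, the size of these folds is imprecise. Gata4 was thus present at a moderate level in both libraries in which its usual upstream partner was close to the limit of detection.

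Sox7 and Sox17, which encode SOX F factors that act downstream of GATA6 in extraembryonic endoderm, were as low as Gata6. Sox7 (ENSMUSG00000063060; chromosome 14, 63943673 to 63950732, plus strand) had 7 counts in replicate 1 and 4 in replicate 2, or 0.0509 and 0.0292 RPKM. Sox17 (ENSMUSG00000025902; chromosome 1, 4490931 to 4497354, minus strand) had 14 and 10 counts, or 0.0703 and 0.0504 RPKM. The noncoding gene Gm37587 overlaps 16.8% of the exonic length of Sox17 on the other strand. Gm37587 had 0 counts in both libraries, and the authors left out reads on overlapping regions. What this took from Sox17 was not tested. Gata4 exceeded Sox17 by 51.2 and 38.9 times and Sox7 by 70.8 and 67.2 times in RPKM in replicates 1 and 2. The size of these folds is likewise imprecise. Sox7 lies 672 kb from Gata4 on the same chromosome, and the large gap in level was seen in both libraries.

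Hnf4a (ENSMUSG00000017950; chromosome 2, 163506808 to 163572910, plus strand), a nuclear receptor that drives the secretory and metabolic genes of visceral endoderm and liver, was the second factor above trace level. It had 93 counts in replicate 1 and 243 in replicate 2, or 0.462 and 1.21 RPKM (0.836 ± 0.530, SD, n = 2). Unlike Gata4, it was higher in replicate 2. The antisense gene Hnf4aos, which shares no exonic base with it, had 0 and 2 counts.

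The receptor and uptake genes were all below 0.4 RPKM. Pdgfra (ENSMUSG00000029231; chromosome 5, 75152292 to 75198215, plus strand), the platelet-derived growth factor receptor that marks primitive endoderm, had 83 counts in replicate 1 and 87 in replicate 2, or 0.199 and 0.209 RPKM. Its libraries were the closest of the low genes, at 0.204 ± 0.00727 RPKM (SD, n = 2). Dab2 (ENSMUSG00000022150; chromosome 15, 6299788 to 6440712, plus strand), an endocytic adaptor, had 52 and 17 counts, or 0.170 and 0.0557 RPKM. Cubn (ENSMUSG00000026726; chromosome 2, 13276338 to 13491813, minus strand), which encodes the ligand-binding receptor cubilin, had 25 and 48 counts, or 0.0401 and 0.0773 RPKM. Amn (ENSMUSG00000021278; chromosome 12, 111271095 to 111276426, plus strand), the membrane anchor of cubilin, had 29 and 16 counts, or 0.377 and 0.209 RPKM. Cubn had more counts in replicate 2 and Amn in replicate 1, the latter within counting error. Megalin, encoded by Lrp2, works with cubilin and DAB2 in uptake. Lrp2 was more abundant, at 3.585 RPKM in replicate 1 and 7.429 in replicate 2 (2497 and 5157 counts). It was chosen after its values were seen.

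Sparc (ENSMUSG00000018593; chromosome 11, 55394500 to 55423183, minus strand) encodes a secreted glycoprotein that binds collagen and is abundant in parietal endoderm and in many other cells. It had 17111 counts in replicate 1 and 16212 in replicate 2, or 108 and 103 RPKM (106 ± 3.77, SD, n = 2), above 98.8% of protein-coding genes. Its mean was 38.0 times that of Gata4. The libraries were close, with a log2 ratio of replicate 1 over replicate 2 of -0.04. This value became 0.07 when the libraries were scaled by total counts in place of the TMM factors, so Sparc has no direction between the libraries.

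Promoter windows from RefSeq (GRCm38.p6), from 250 bases before to 50 bases after an annotated start, were used for 6 of the 10 genes in 8 windows. No window was used for Gata4, Gata6, Sox7 and Sox17. The 8 windows were searched on both strands for hexamers that GATA factors can bind. These were AGATAA as the usual form, TGATAA as the form with another first base, and AGATAG as the form with another last base. For SOX factors the hexamers were ACAATG as found in many enhancers, ACAATA as the form ending in another base, and ACAATT as a further form. The form ACAATC was not searched for. A GATA hexamer was found in 2 of the 8 windows and a SOX hexamer in 0, while 25.1% and 26.1% of the 32851 windows of all genes held one. The windows below are those with a GATA hexamer, which belong to genes that differed between the libraries in opposite directions, and that of Sparc, the most abundant gene, which held neither. Each is written 5′ to 3′ on the strand of the gene, with the hexamers in capitals. The window of Hnf4a is at chr2:163506607-163506906 (plus strand) and holds AGATAA 52 bases before the start. That of Dab2 is at chr15:6299539-6299838 (plus strand) and holds TGATAA 179 bases before the start and AGATAA, read on the other strand, from base 15 after it. That of Sparc is at chr11:55420031-55420330 (minus strand). Hnf4a and Dab2 each have a second annotated start, and counts per gene do not tell which start was used. The annotated Sparc gene begins at 55423183, outside its window, and the bases there were not searched.
Hnf4a, first start: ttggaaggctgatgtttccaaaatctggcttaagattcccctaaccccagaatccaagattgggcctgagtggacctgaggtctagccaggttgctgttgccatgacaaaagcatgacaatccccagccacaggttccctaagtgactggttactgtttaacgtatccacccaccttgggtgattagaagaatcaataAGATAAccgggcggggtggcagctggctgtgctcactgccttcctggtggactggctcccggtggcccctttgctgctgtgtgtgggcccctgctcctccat
Dab2, first start: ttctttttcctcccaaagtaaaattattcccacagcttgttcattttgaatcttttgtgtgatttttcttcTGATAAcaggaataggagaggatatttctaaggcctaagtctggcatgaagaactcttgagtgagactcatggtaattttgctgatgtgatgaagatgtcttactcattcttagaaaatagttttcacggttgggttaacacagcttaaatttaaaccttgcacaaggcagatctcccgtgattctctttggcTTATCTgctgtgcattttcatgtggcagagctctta
Sparc: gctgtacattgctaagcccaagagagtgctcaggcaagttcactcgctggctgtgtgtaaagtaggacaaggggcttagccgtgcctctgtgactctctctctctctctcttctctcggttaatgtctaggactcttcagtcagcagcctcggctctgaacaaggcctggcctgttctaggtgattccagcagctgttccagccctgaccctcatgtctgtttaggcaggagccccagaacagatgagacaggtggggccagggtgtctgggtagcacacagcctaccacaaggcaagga

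The libraries were then compared gene by gene. Replicate 2 was scaled to replicate 1 by TMM factors, and log2 ratios, with replicate 1 in the numerator, were taken after adding 1 to the scaled counts. Each side is 1 library, so there is no test. The intervals given are 95% exact (Clopper-Pearson) intervals of the ratio without the added count, which cover counting error in these libraries only. Of the 10 genes, 9 averaged 10 counts or more and Sox7 did not. Beyond 2-fold lay 4 of the 9, against 21.4% of the 17788 genes with that mean. Gata6 and Dab2 were higher in replicate 1, a direction that held for 14.2% of all genes, and Hnf4a and Cubn were higher in replicate 2, as were 7.14%. Low counts scatter more. Of the 6 genes with a mean of 10 to below 100 counts, 3 were beyond 2-fold, where 41.3% of the 4783 genes in that range were. The share among these low genes was thus near that of other genes with as few counts. Of Gata4 and Hnf4a, which averaged 100 to below 1000 counts, Hnf4a was beyond 2-fold, and 23.6% of the genes in that range were.

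**Figure D2:**
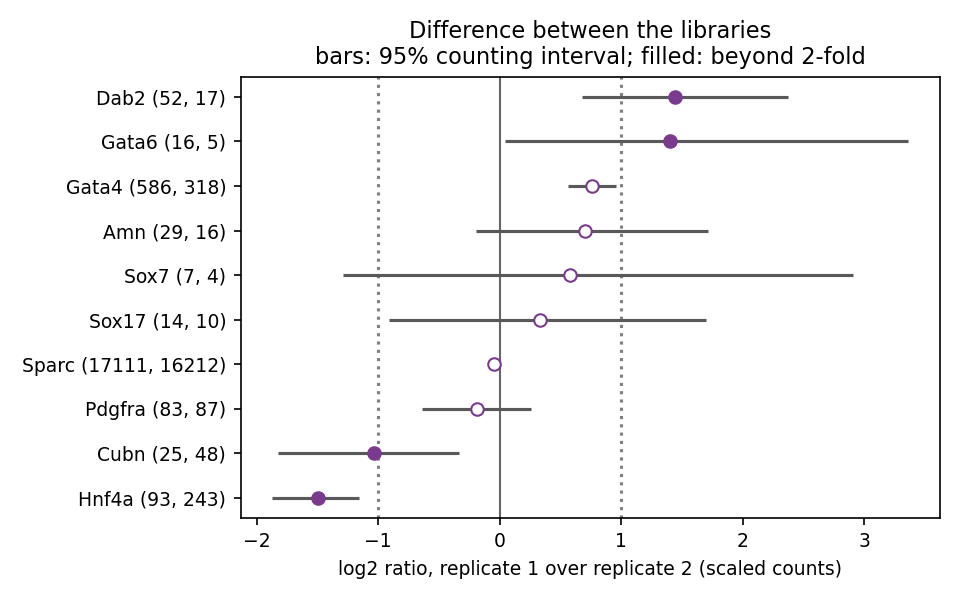
Log2 ratio of replicate 1 over replicate 2 (x axis) for each primitive endoderm gene, with raw counts of replicates 1 and 2 in brackets, 95% counting intervals as bars, dotted lines at 2-fold and filled points beyond it. Hnf4a is the only one of the filled genes whose interval lies wholly beyond 2-fold.

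Hnf4a showed the difference with most depth among those 4 genes. At 93 counts in replicate 1 and 264 scaled counts in replicate 2, its log2 ratio was -1.50 (-1.87 to -1.16), and without the added count it was 2.84-fold higher in replicate 2. This was lower than in all but 3.5% of the genes compared. Dab2 had a log2 ratio of 1.44 (0.68 to 2.37), and without the added count it was 2.81-fold higher in replicate 1. Dab2 lies on chromosome 15, where the median of the 682 other genes was 0.59, and the 18 remaining autosomes had medians from -0.08 to 0.08. The 7 genes compared within 1 Mb of Dab2 had a median of -0.07. The part of the chromosome in the ratio of Dab2 was not tested. Gata6 was 2.94-fold higher in replicate 1 without the added count, with an interval of the log2 ratio from 0.04 to 3.36 that nearly reached equal levels. Cubn had -1.03 (-1.82 to -0.34), just past 2-fold, and fell short of it when the libraries were scaled by total counts.

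The other genes stayed within 2-fold. Gata4 had a log2 ratio of 0.76 (0.56 to 0.96), which is larger than counting error, and without the added count it was 1.69-fold higher in replicate 1. The 18 genes compared within 1 Mb of Gata4 had a median of 0.50, against -0.04 for chromosome 14, and whether the ratio of Gata4 belongs to its surroundings was not tested. Between Gata4 and Sox7, the 6 genes compared ranged from -1.61 to 1.48 with a median of -0.89, so neighbours on that side leaned to replicate 2. The intervals of Sox17 (0.34, from -0.91 to 1.69), Sox7 (0.58, from -1.29 to 2.91), Amn (0.70, from -0.19 to 1.71) and Pdgfra (-0.19, from -0.64 to 0.26) included equal levels. For these 4 genes a difference was not detectable at this depth. Intervals without equal levels were found for 6 of the 9 genes with enough counts, as for 73.2% of all genes compared. The median log2 ratio over the 9 genes with enough counts was 0.34, beside 0.02 over all genes compared, whose quartiles were -0.38 and 0.54, and 0.16 over those that averaged 10 to below 100 counts. Leaving aside Sparc, 6 genes were higher in replicate 1 and 3 in replicate 2, with 4 of these 9 within counting error.

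**Figure D3:**
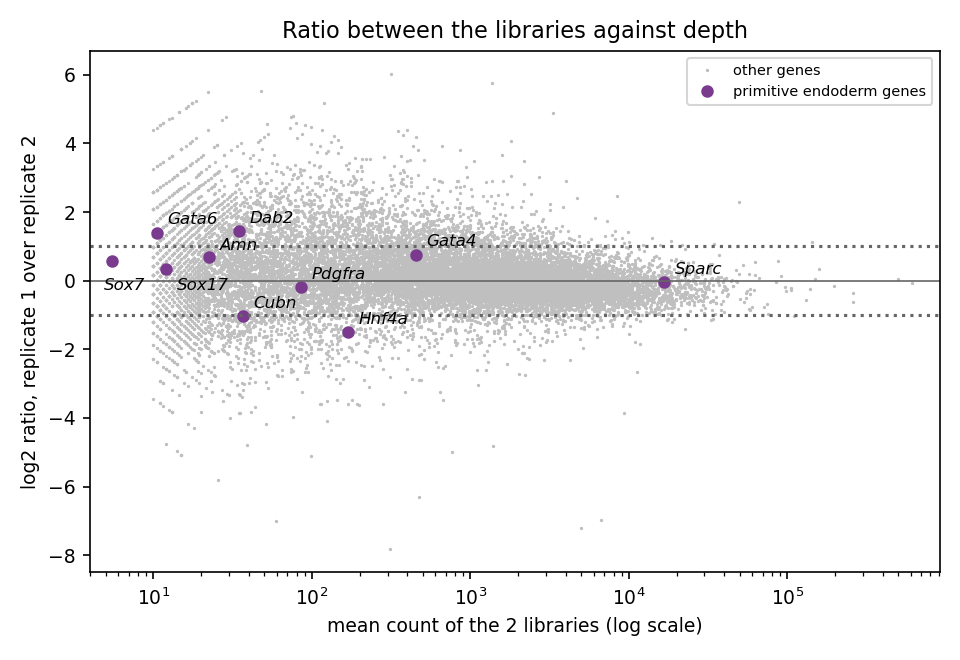
Log2 ratio of replicate 1 over replicate 2 (y axis) against the mean count of the libraries (log x axis) for genes that averaged 10 counts or more (grey) and the 10 primitive endoderm genes (purple), with dotted lines at 2-fold. Most primitive endoderm genes sit in the left part, where the grey points fan out, and Hnf4a lies below the lower dotted line.

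Other genes of the same lineage were read from lists by role. Of 7 further transcription factors tied to primitive endoderm, 3 were above 1 RPKM. These were Sall4 (39.0 and 57.1 RPKM in replicates 1 and 2) and Otx2 (14.3 and 30.0), which mESCs also use, and the homeobox gene Hhex. Hhex had 337 and 235 counts (1.36 RPKM as the mean), and the nuclear receptor gene Nr2f2 had 160 and 180 (0.473 RPKM). Foxa2, the pioneer factor, had 6 and 1 counts, and Gata5 had 4 and 1. Foxa2, Gata5, Hhex and Nr2f2 were chosen after their values were seen. Of the 5 with enough counts, Foxq1 (33 and 4 counts, log2 ratio 2.67) was beyond 2-fold higher in replicate 1 and Otx2 (-1.19) in replicate 2. Over all genes compared, these directions held for 14.2% and 7.14%. Foxq1 averaged 10 to below 100 counts, where 41.3% of genes were beyond 2-fold in either direction.

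The matrix genes of parietal endoderm were mostly expressed, as Sparc was. Of 14 genes, all had at least 10 counts in both libraries and 11 were above 1 RPKM. The median level was 6.83 RPKM, beside 0.158 for the 10 primitive endoderm genes. Fibronectin (Fn1) was the highest, at 141 RPKM in replicate 1 and 116 in replicate 2. The collagen chaperone gene Serpinh1 was the only one of the 14 beyond 2-fold, at 43.8 and 12.2 RPKM (log2 ratio 1.73). Of all genes compared, 21.4% were beyond 2-fold in either direction. Lama1, a laminin chain of early basement membrane, had the lowest ratio (-0.61). Lower than the rest were Plat, Thbd and Pth1r, chosen after their values were seen, at 0.156, 0.342 and 0.123 RPKM. They encode a plasminogen activator, thrombomodulin and a hormone receptor typical of parietal endoderm. Laminins, nidogens and fibronectin are also made by mESCs.

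Genes for uptake and secretion in visceral endoderm were split. Of 14, 4 were above 1 RPKM and 6 below 0.1 RPKM. The lipid carrier gene Apoe led with 207 RPKM in replicate 1 and 141 in replicate 2. Transthyretin (Ttr) and Apoa4 had 0 counts in both libraries and alpha-fetoprotein (Afp) had 4 and 0. These 3 genes were chosen after their values were seen. Of the 9 with enough counts, Apoa1 (21 and 4 counts, log2 ratio 2.04) and Rbp4 (1.44) were beyond 2-fold higher in replicate 1. Apom (-1.93) and Lrp2 (-1.17) were so in replicate 2. Over all genes compared, 14.2% and 7.14% were beyond 2-fold in these directions. Apoa1 and Rbp4 averaged 10 to below 100 counts, where 41.3% of genes were beyond 2-fold in either direction. Apom encodes a lipoprotein component. The median log2 ratio of the 9 was 0.25, so the list as a whole did not lean to replicate 2.

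The FGF genes that feed the choice of epiblast or primitive endoderm were all expressed. Each of the 10 was above 1 RPKM as the mean of the libraries. The ligand gene Fgf4 was the highest, at 168 RPKM in replicate 1 and 121 in replicate 2. The receptor gene Fgfr2 was the lowest, with 671 and 323 counts (1.56 and 0.752 RPKM) and a log2 ratio of 0.93, the highest of the list. The feedback inhibitor genes Spry4 (874 and 3479 counts, -2.11) and Spry2 (921 and 2838 counts, -1.74) were beyond 2-fold higher in replicate 2. That direction held for 7.14% of all genes compared, and no other of the 10 was beyond 2-fold.

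**Figure D4:**
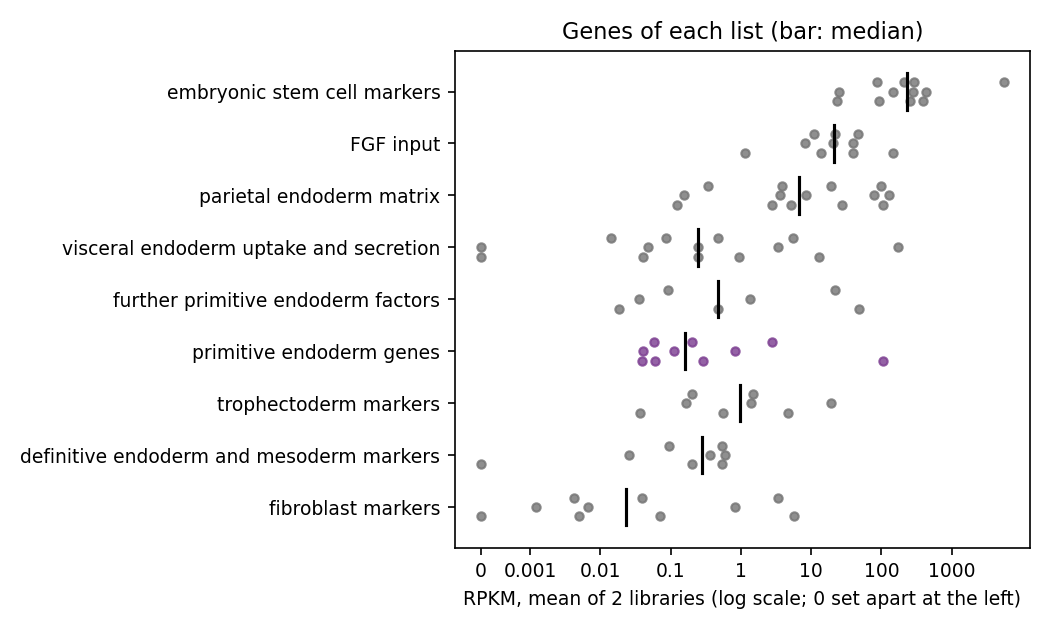
RPKM as the mean of the libraries (log x axis, genes at 0 set apart at the left) for each gene of the lists of mESC markers, FGF genes, endoderm genes and markers of other cell types, with bars at the list medians. The primitive endoderm genes (purple) have a median of 0.158 RPKM, with Sparc far to the right, while the mESC markers have a median of 234 RPKM.

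Sparc and Pdgfra are also made by fibroblasts, and GATA and SOX genes by other lineages, so markers of such cells were read beside them. Of 10 fibroblast markers, 7 were below 0.1 RPKM and 4 had at least 10 counts in both libraries, and their summed level was 12.1 RPKM in replicate 1 and 8.12 in replicate 2. The highest was Thy1 (6.59 and 4.99 RPKM), which mESCs can also express. Of the 4 with enough counts, Pdgfrb (285 and 91 counts) was the only one beyond 2-fold, beside 21.4% of all genes compared. Dcn averaged too few counts to be compared and had a log2 ratio of -4.44. Col5a1, a fibrillar collagen gene, had 1462 and 908 counts (4.13 and 2.57 RPKM). The collagen genes Col1a2 and Col3a1 had 6 and 1 and 1 and 0 counts, Postn had 0 in both, Dcn had 0 and 19, Lum had 0 and 1, and Col1a1 had 20 and 18. The part of such cells in the level of Sparc or Pdgfra was not tested. Col5a1, Col1a2, Col3a1, Postn, Dcn and Lum were chosen after their values were seen. Of 8 trophectoderm markers, 7 had enough counts, and 6 of these were beyond 2-fold higher in replicate 1 (14.2% of all genes) and 0 in replicate 2 (7.14%). Among the 6, Elf5 and Gata3 averaged 10 to below 100 counts, where 41.3% of genes were beyond 2-fold in either direction. Krt7 had 2674 counts in replicate 1 and 44 in replicate 2, while Tead4 was level (19.4 and 19.4 RPKM). The summed level of the 8 was 34.8 RPKM in replicate 1 and 20.96 in replicate 2. Their part in the higher counts of Gata6, Dab2 and Gata4 in replicate 1 was not tested.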

How the data were processed

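PolyA RNA of Dicer_KO mESCs was measured in 2 libraries, grouped as Dicer_KO from their titles. The authors trimmed reads with Trimmomatic, aligned them to mm10 with STAR (version 2.4.2a), and deposited, per library, whole-number counts per Ensembl gene from featureCounts (1.4.5-p1), leaving out reads on overlapping regions. Libraries were reverse-stranded. The strand setting of the counter, and its treatment of reads with several alignments, are not given in the sources used here. Symbols, positions and exon lengths came from GENCODE M21 (GRCm38), in which 1081 of the 43629 genes had no entry.

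RPKM used the union of annotated exons and the total counts. Libraries were scaled by TMM (edgeR 4.0.16, R 4.3.3). Genes that averaged 10 counts or more and differed beyond 2-fold were called, and no p-value was computed, since each side of a comparison is 1 library and replicates may differ technically. Members and lists were chosen with earlier results of these data known, and 1 listed gene is not reported here. Named were all 10 genes, Dicer1, and in each list the highest RPKM and the highest and lowest ratio. Other listed genes were chosen after their values were seen. Simulated data served to check the script: of 200 genes changed 4-fold without extra spread, 196 came out beyond 2-fold, as did 122 of 17593 unchanged genes. With a dispersion of 0.02 between libraries, 197 and 244 of 17558 did. Then 51.2% of the intervals of unchanged genes left out equal levels, so the intervals hold for counting error alone. In the real libraries 21.4% of genes were beyond 2-fold and 73.2% of intervals left out equal levels. The simulated spread was not matched to theirs, so it gives no error rate for the 2-fold rule. Alternatives were DESeq2 (1.42.0) size factors, a pseudocount of 0.1, total counts, count minimums of 3 or 100 or none, 4-fold, transcript length and leaving out each library. WT libraries were not analysed here.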

Additional observations from a re-analysis of the deposited data

How the results depend on the processing

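No paired analysis was possible because the labels give only 1 group. Of 58 values computed under alternatives without leaving out a library, 47 stayed as they were within the counting interval, the spread between libraries or 1.5 times. Among the 58 were 30 log2 ratios of single genes, of which 29 stayed within their counting intervals. Apart from that of Sparc, these intervals are wide beside the shifts from rescaling, so this says little of stability. The log2 ratio of Sparc changed sign, to 0.0729, with scaling by total counts, which moved the median of all genes from 0.02 to 0.14. The number of primitive endoderm genes beyond 2-fold was 4. It was 3 with total counts, where Cubn was lost, 1 (Hnf4a) of the 3 genes that averaged 100 counts or more, and 0 at 4-fold. Over all genes, 3803 of 17788 (21.4%) were beyond 2-fold, and 22.1% were with total counts. With no filter on low counts, 7938 of 43629 (18.2%) were, so the number rose while the share fell. Among genes averaging 100 counts or more, 1827 of 13005 (14%) were beyond 2-fold. At 4-fold, 1016 of 17788 (5.71%) were called. At least 100 counts in both libraries were found for 2 of the 10 genes (Gata4 and Sparc). With the longest transcript in place of all exons, the summed RPKM was 179 in place of 110, Sparc was at 174, and the levels of Gata6, Sparc and Dab2 were 1.72, 1.65 and 1.57 times as high. Gata6 then ranked above Sox7, and the other 8 ranks were as before. Genes with at least 10 counts numbered 8 in replicate 2 alone and 9 in replicate 1 alone, a check added after the data were seen. Leaving out a library put the summed RPKM between 107 and 113, but a move of this kind always stays within the spread of 2 libraries and says nothing of stability. Depth limits Gata6, Sox7 and Sox17 most, with 4 to 16 counts each.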

Other observations

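Markers of definitive endoderm and mesoderm, lineages that share Sox17 and some GATA factors with primitive endoderm, were low in both libraries. All 8 were below 1 RPKM, and 3 were below 0.1 RPKM. Cer1, a secreted inhibitor, had 0 counts in both libraries, and T, the mesoderm factor brachyury, had 3 and 2. Cer1, T, Foxa3 and Gsc were chosen after their values were seen. Of the 5 with enough counts, 3 were beyond 2-fold higher in replicate 1, as were 14.2% of all genes compared. All 3 averaged 10 to below 100 counts, where 41.3% of all genes were beyond 2-fold in either direction. The share in that range higher in replicate 1 alone was not computed. They were Foxa3, Gsc and Cxcr4, and Cxcr4, a chemokine receptor gene, had 68 counts in replicate 1 and 13 in replicate 2. Kdr, a receptor of endothelial precursors, was the only one of the 5 beyond 2-fold higher in replicate 2, with 90 and 353 counts. That direction held for 7.14% of all genes compared. The summed level of the 8 was 2.80 RPKM in replicate 1 and 1.88 in replicate 2.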
